A study of Mus musculus with 24 samples.

Results

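Mouse liver expresses a group of cytosolic and mitochondrial enzymes that open, deaminate or oxidise surplus amino acids, and 9 of them were examined here in mice on a methionine-restricted (MR) or control (Con) diet with or without hepatic NRF2. They are Tat, Hpd, Hgd and Fah of tyrosine breakdown, Tdo2 and Haao of tryptophan breakdown, Sds and Sdsl of serine breakdown, and Oat of ornithine breakdown. They were taken by gene name from the deposited tables, and all 9 were among the 13336 genes tested of 15160 listed. The liver is the main site of these pathways. Their first enzymes, such as Tat and Tdo2, are known for rapid induction by glucocorticoids and their substrates, and Sds for induction by fasting and protein intake. NRF2, encoded by Nfe2l2, is a transcription factor that binds antioxidant response elements (ARE) in its target genes.

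The 4 groups were male mice aged 5 months with 6 animals each, WT mice on the Con or the MR diet and NRF2 KO mice on either diet. All carried a floxed Nfe2l2 gene. WT mice carried 2 floxed alleles of Nfe2l2 (NRF2fl/fl) without Cre. NRF2 KO mice (NRF2fl/(alb)) carried the floxed gene together with Cre driven by the albumin promoter, which acts in hepatocytes. The diets held elemental amino acids with methionine at 0.86% in Con and at 0.17% in MR, were started at 8 weeks of age and lasted 8 weeks, with a further stay in calorimeters and home cages before tissue was taken after a 4 h fast. RNA was read by QuantSeq, which counts reads near the 3′ end of each transcript, so the values below are CPM, read counts of that end scaled to a common library total with edgeR's TMM method, and they are compared between mice and not between genes.

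The mice WT_CON_7604 and WT_MR_7612, which the study left out as outliers, are left out here, which gives 5 WT mice and 6 NRF2 KO mice on each diet. Gene counts summed to 6197291 in the shallowest and 22068338 in the deepest library. The deleted gene goes against 1 label: the 3′ count of Nfe2l2 was 94.0 to 125 CPM in 9 WT mice and 202 to 339 CPM in the 12 NRF2 KO mice, and 324 CPM in the library labelled WT_CON_7607. A 3′ count does not measure the deleted stretch itself, and the WT values without WT_CON_7607 are given with Oat, Haao, Tdo2, Hpd, Hgd, Fah, Sds and Sdsl. The hepatocyte markers Alb, Ttr, Apoa1 and others summed to between 90998 and 143482 CPM per mouse. In bulk RNA, fewer cells of a type and less RNA per cell cannot be told apart.

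On MR the mRNA of Oat and Haao passed as lower in both genotypes and that of Tdo2 and Hgd in NRF2 KO mice. None of the 9 passed as higher, and for none did the interaction of genotype and diet pass. With edgeR's quasi-likelihood test and a Benjamini-Hochberg adjusted p under 0.05 over all genes, 2 of 9 enzymes were lower on MR in WT mice and 4 of 9 in NRF2 KO mice. Of all genes tested, 6.91% were higher and 6.91% lower on MR in WT mice, and 6.23% were higher and 6.34% lower in NRF2 KO mice. The median log2 fold change of the 9 was -0.02 in WT and -0.25 in NRF2 KO, beside -0.0062 and -0.0042 over all genes. Between genotypes Tdo2 on the MR diet was the 1 enzyme to pass, lower in NRF2 KO mice. That call was lost with either clock gene score as a covariate. Neither score overlapped between the genotypes on MR, so those fits cannot separate score from genotype.

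**Figure D1:**
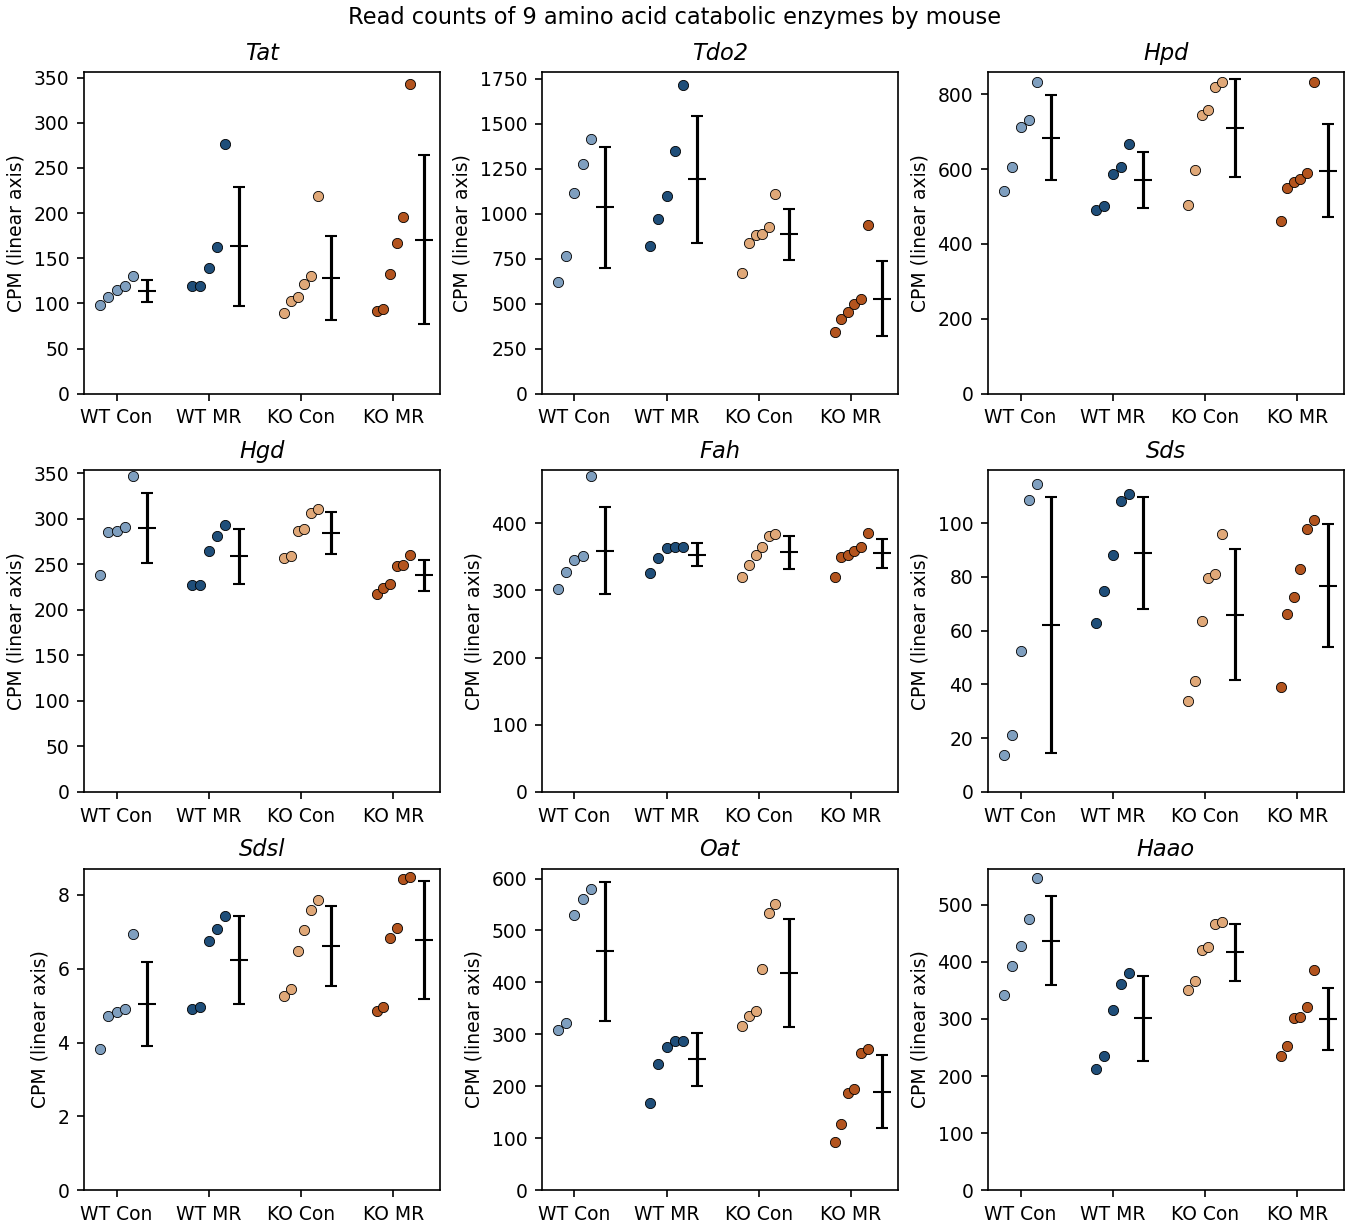
CPM (vertical axes, linear, from 0) of the 9 enzymes in each mouse of the 4 groups of genotype and diet (horizontal axes), with bars for the mean ± SD of 5 or 6 mice. Oat does not overlap between diets in either genotype, 5 of 6 NRF2 KO MR mice lie below every other mouse for Tdo2, and Fah stays near the same level throughout.

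The promoters of the enzymes with the clearest differences are shown to place the measurements, with the 250 bases before and 50 after the annotated start (RefSeq, GRCm38.p6), each written 5′ to 3′ on the gene's own strand. Promoters of 7 of the 9 were matched by symbol, those of Tat, Tdo2, Hpd, Hgd, Fah, Oat and Haao. Capitals mark matches, on either strand, to the cyclic AMP response element (CRE) TGACGTCA, the C/EBP-ATF element TGATGNAA, the ARE core TGACNNNGC and the glucocorticoid receptor hexamer TGTTCT.
Oat, chr7:132576349-132576648, minus strand: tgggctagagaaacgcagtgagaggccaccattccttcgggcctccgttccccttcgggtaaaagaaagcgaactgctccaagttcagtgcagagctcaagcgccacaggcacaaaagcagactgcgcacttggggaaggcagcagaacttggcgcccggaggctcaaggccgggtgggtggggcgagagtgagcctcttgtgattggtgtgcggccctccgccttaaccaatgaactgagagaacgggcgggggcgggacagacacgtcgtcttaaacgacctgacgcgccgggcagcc
Haao, chr17:83846741-83847040, minus strand: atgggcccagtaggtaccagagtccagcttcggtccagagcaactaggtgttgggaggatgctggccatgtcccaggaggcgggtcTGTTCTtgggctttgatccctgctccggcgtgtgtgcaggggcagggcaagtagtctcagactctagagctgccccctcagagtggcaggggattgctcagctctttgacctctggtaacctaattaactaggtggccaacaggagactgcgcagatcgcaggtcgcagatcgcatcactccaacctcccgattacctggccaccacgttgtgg
Tdo2, chr3:81975679-81975978, minus strand: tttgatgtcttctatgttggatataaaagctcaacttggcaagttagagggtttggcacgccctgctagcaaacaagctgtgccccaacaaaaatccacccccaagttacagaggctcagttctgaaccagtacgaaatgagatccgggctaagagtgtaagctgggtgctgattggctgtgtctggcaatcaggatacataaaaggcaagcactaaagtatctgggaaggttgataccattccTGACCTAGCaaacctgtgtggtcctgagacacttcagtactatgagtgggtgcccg
The Tdo2 window held 1 ARE core match, TGACCTAGC, from base -6 to base 2 counted from the start, which is base 0. The Haao window held 1 glucocorticoid receptor hexamer from base -164 to base -159. The Haao and Tdo2 windows lie inside the gene spans given below, which end at bases 83847963 and 81976202. Their RefSeq starts therefore differ from the starts of those spans, and the positions hold for the RefSeq starts only. The windows of Oat, Tat, Hpd, Hgd and Fah held no match to any of the 4, which says only that these letters are not in these windows. Of the 32851 promoters in the table, 12.4% held the ARE core, 19.0% the hexamer, 3.97% the C/EBP-ATF element and 1.79% the CRE. A match is a description of letters and not evidence of binding.

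Oat encodes ornithine aminotransferase, the mitochondrial enzyme that passes ornithine on towards proline and glutamate and, in liver, works mostly in hepatocytes around the central vein. The gene (ENSMUSG00000030934) spans bases 132557478 to 132576398 of the minus strand of chromosome 7 in GENCODE M21 on GRCm38, with 10 exons, and lies within the span annotated for Fgfr2 on the same strand. In WT Con mice Oat read 309, 321, 530, 560 and 581 CPM, and in WT MR mice 167, 243, 276, 287 and 288 CPM. Every WT MR mouse was below every WT Con mouse, and the WT Con mice themselves fell into a low pair and a high trio. In NRF2 KO Con mice the values were 316, 335, 345, 426, 534 and 551 CPM, and in NRF2 KO MR mice 93.6, 128, 187, 196, 263 and 271 CPM. Again the diets did not overlap, and Oat was the only one of the 9 without overlap in either genotype, against 9.32% of all genes in WT and 5.45% in NRF2 KO.

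The mean of Oat fell by 45.2% in WT mice, from 460 ± 134 (SD, n = 5) to 252 ± 51.0 CPM (n = 5), and by 54.6% in NRF2 KO mice, from 418 ± 104 (n = 6) to 190 ± 70.9 CPM (n = 6). The log2 fold change was -0.87 ± 0.27 (SE) in WT with an edgeR adjusted p of 0.036, and -1.14 ± 0.25 in NRF2 KO with an adjusted p of 0.0050. Between genotypes Oat differed by -0.14 on Con and -0.41 on MR, with 95% intervals from -0.67 to 0.39 and from -0.94 to 0.12. The interaction of genotype and diet for Oat was -0.27 with a 95% interval from -1.03 to 0.48, so a difference in the response was not detectable. In NRF2 KO the call held without any 1 mouse and under all 10 alternatives. In WT it was lost without WT_CON_7603, WT_CON_7607, WT_CON_7608 or any 1 of the 5 WT MR mice, with log2 fold changes of -0.92 to -0.75 and adjusted p of 0.051 to 0.087, and the value without WT_CON_7607 was -0.78. It was also lost with library size alone (-0.80, adjusted p = 0.068) and with the signed clock gene score described with Tdo2 as a covariate (-1.001, adjusted p = 0.072). The left-out mice read 108 CPM (WT_CON_7604) and 87.2 CPM (WT_MR_7612), scaled with all mice, both below every WT mouse kept, and with them the WT value was -0.84 with an adjusted p of 0.116.

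Haao encodes the dioxygenase that opens 3-hydroxyanthranilate, a late step of the kynurenine pathway on the way to quinolinate and NAD. The gene (ENSMUSG00000000673) spans bases 83831156 to 83847963 of the minus strand of chromosome 17 and has 10 exons. Haao read 343, 393, 427, 476 and 547 CPM in WT Con mice and 212, 235, 316, 362 and 380 CPM in WT MR mice. The 3 lowest WT MR mice were below all WT Con mice, and the 2 highest overlapped the 1 lowest WT Con mouse, WT_CON_7607. In NRF2 KO Con mice it read 350, 367, 420, 426, 466.0 and 469 CPM, and in NRF2 KO MR mice 235, 252, 302, 303, 321 and 386 CPM. All but 1 of the NRF2 KO MR mice, KO_MR_7632, were below every NRF2 KO Con mouse.

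The mean of Haao fell by 31.1% in WT (log2 fold change -0.54 ± 0.16 SE, edgeR adjusted p = 0.024). In NRF2 KO mice it fell by 28.04% (-0.48 ± 0.14, adjusted p = 0.030). The group means were 437 ± 78.2 CPM (SD) in WT Con, 301 ± 74.7 in WT MR, 417 ± 49.3 in NRF2 KO Con and 299.8 ± 53.7 in NRF2 KO MR mice. In their order, WT Con and NRF2 KO Con differed by less than 1 SD, as did WT MR and NRF2 KO MR, and the gap between NRF2 KO Con and WT MR was larger than the SD of either. The WT call was lost without WT_CON_7603, WT_CON_7605, WT_MR_7609 or WT_MR_7615, with values of -0.51 to -0.43 and adjusted p of 0.052 to 0.068, and was kept without WT_CON_7607 (-0.61, adjusted p = 0.015). It was also lost with only the groups compared (-0.54, adjusted p = 0.062) and with the signed clock gene score (-0.59, adjusted p = 0.059). The NRF2 KO call was lost without KO_CON_7617, KO_CON_7618, KO_CON_7620, KO_MR_7625, KO_MR_7629 or KO_MR_7631, with values of -0.48 to -0.41 and adjusted p of 0.052 to 0.073, and over all 24 mice (-0.47, adjusted p = 0.103).

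Tdo2 encodes tryptophan 2,3-dioxygenase, the rate-limiting first enzyme of hepatic tryptophan breakdown, and it was the 1 enzyme to pass between genotypes. The gene (ENSMUSG00000028011) spans bases 81957090 to 81976202 of the minus strand of chromosome 3 and has 12 exons. Tdo2 read 621, 764, 1113, 1275 and 1415 CPM in WT Con mice and 821, 970, 1102, 1352 and 1717 CPM in WT MR mice. These ranges overlapped almost wholly, and the WT value was 0.20 ± 0.26 (log2 fold change ± SE, edgeR adjusted p = 0.66), or 0.066 without WT_CON_7607 and 0.035 without WT_MR_7613. In NRF2 KO Con mice it read 674, 836, 885, 888, 925 and 1112 CPM, and in NRF2 KO MR mice 345, 418, 456, 497, 525 and 937 CPM. The 5 lower NRF2 KO MR mice were below all other mice kept in the analysis, and KO_MR_7632 stood at the level of the NRF2 KO Con mice.

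Within NRF2 KO the mean of Tdo2 fell by 40.3% on MR, from 887 ± 141 (SD, n = 6) to 530 ± 209 CPM (n = 6), a log2 fold change of -0.74 ± 0.23 (SE, edgeR adjusted p = 0.042). On the MR diet NRF2 KO mice were lower than WT mice by 1.17 on the log2 scale (-1.17 ± 0.24, adjusted p = 0.010), with all 6 below the WT MR median and 5 of 6 below every WT MR mouse. Of all genes, 0.555% were higher and 1.38% lower in NRF2 KO on MR. On Con the genotypes differed by -0.23 with a 95% interval from -0.73 to 0.28. The test of whether MR acted differently in the genotypes gave an interaction of -0.94 ± 0.35 with an unadjusted p of 0.013 and an adjusted p of 0.50, so the difference in response did not pass. No member passed that test with edgeR, 1 had an unadjusted p under 0.05 and DESeq2 called 0, while 0.045% of all genes passed it.

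The genotype difference of Tdo2 on MR held without any 1 mouse and over all 24 mice (-1.06, adjusted p = 0.016), and was -1.41 without KO_MR_7632. The fall on MR in NRF2 KO mice was -0.98 without KO_MR_7632. That call was lost without any 1 of KO_CON_7617, KO_CON_7618, KO_CON_7620, KO_CON_7621, KO_CON_7623, KO_MR_7625, KO_MR_7627, KO_MR_7628, KO_MR_7629 and KO_MR_7631, with values of -0.76 to -0.65 and adjusted p of 0.061 to 0.093. It was also lost with every gene with a count (adjusted p = 0.051), over all 24 mice (adjusted p = 0.0504) and with the signed clock gene score (-0.69, adjusted p = 0.057). Circadian clock genes moved with genotype and, in WT, with diet in these mice. Of 15 tested, 10 passed for genotype on Con and 2 on MR, and 8 passed for MR in WT and 2 in NRF2 KO. A score of 15 clock genes, their mean standardised log2 CPM with Arntl, Clock, Npas2 and Cry1, which cycle against the rest, subtracted, ran from -0.79 to 0.29 in WT MR and from 0.43 to 0.67 in NRF2 KO MR mice, and from -1.92 to -0.40 in WT Con and from 0.15 to 0.75 in NRF2 KO Con mice. With this score as a covariate the difference of Tdo2 on MR was -0.97 with an adjusted p of 0.135, and with the plain mean of the clock genes it was -1.19 with an adjusted p of 0.052. Neither score overlapped between WT MR and NRF2 KO MR mice, so these fits cannot tell clock score and genotype apart.

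**Figure D2:**
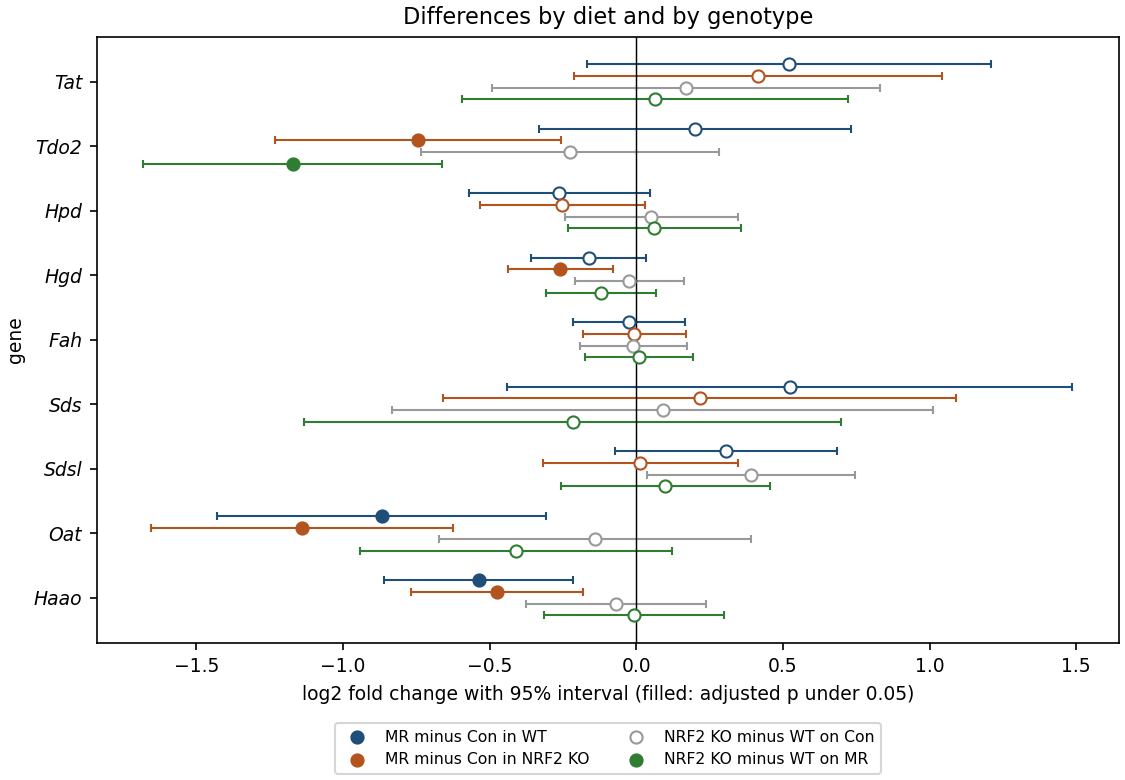
Log2 fold change (horizontal axis) of each enzyme (vertical axis) for MR against Con in WT and in NRF2 KO and for NRF2 KO against WT on each diet, with 95% intervals from edgeR; filled points have an adjusted p under 0.05. Oat and Haao lie left of 0 for the diet in both genotypes, Tdo2 for the diet in NRF2 KO and for genotype on MR, and Hgd for the diet in NRF2 KO.

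Of the tyrosine pathway, which runs from tyrosine to fumarate and acetoacetate, Hgd in NRF2 KO mice passed the test, and the values of Hpd were of like size with wider intervals. Hgd, homogentisate 1,2-dioxygenase, opens the aromatic ring, and its gene (ENSMUSG00000022821) spans bases 37580153 to 37632020 of the plus strand of chromosome 16, in 14 exons. It read 238, 285, 287, 291 and 347 CPM in WT Con and 227, 227, 264, 281 and 293 CPM in WT MR mice, which overlapped. In NRF2 KO Con mice it read 257, 259, 286, 288, 306 and 311 CPM, and in NRF2 KO MR mice 218, 224, 229, 248, 249 and 260 CPM, so that 5 of 6 MR mice were below all Con mice. The mean fell by 16.4% in NRF2 KO mice (log2 fold change -0.26 ± 0.09 SE, edgeR adjusted p = 0.049). In WT the value was -0.16 with a 95% interval from -0.36 to 0.03, and -0.22 without WT_CON_7607. The interaction of genotype and diet for Hgd was -0.096 with a 95% interval from -0.36 to 0.17, so a difference in the response was not detectable. The Hgd call in NRF2 KO lay at the threshold and was kept in 9 of 22 fits that left out 1 mouse and in 4 of 10 alternatives. It was lost without WT_CON_7602, WT_CON_7603, WT_MR_7611, WT_MR_7616, KO_CON_7617, KO_CON_7621, KO_CON_7622, KO_CON_7623 or any KO_MR mouse but KO_MR_7627, with values of -0.27 to -0.23, and was -0.10 with an adjusted p of 0.36 when counts were scaled by library size alone.

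Tat, tyrosine aminotransferase, is the first enzyme of the pathway and a textbook target of the glucocorticoid receptor (ENSMUSG00000001670, chromosome 8, bases 109990437 to 109999803, plus strand, 12 exons). It read 98.4, 107, 115, 119 and 131 CPM in WT Con mice and 119, 120, 139, 163 and 276 CPM in WT MR mice. All 5 WT MR mice were above the WT Con median, and WT_MR_7609 stood far above the others. NRF2 KO Con mice read 89.0, 103, 107, 121, 131 and 219 CPM, and NRF2 KO MR mice 91.6, 93.3, 133, 167, 196 and 343 CPM. The log2 values for MR of 0.52 ± 0.33 in WT (edgeR adjusted p = 0.32) and, without NRF2, 0.41 ± 0.30 (adjusted p = 0.41) did not pass, and their 95% intervals ran from -0.17 to 1.21 and from -0.21 to 1.04. Single mice carried much of both, since the WT value was 0.25 without WT_MR_7609 and the NRF2 KO value 0.089 without KO_MR_7631.

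Hpd, which converts 4-hydroxyphenylpyruvate to homogentisate, read from 542 to 831 CPM with a median of 712 in WT Con and from 491 to 668 with a median of 586 in WT MR mice. In NRF2 KO Con mice it ran from 505 to 833 with a median of 751, and in NRF2 KO MR mice from 462 to 833 with a median of 570 CPM. The groups overlapped, and the log2 values of -0.26 ± 0.15 in WT (edgeR adjusted p = 0.26) and, without NRF2, -0.25 ± 0.14 (adjusted p = 0.24) did not pass, with 95% intervals from -0.57 to 0.045 and from -0.53 to 0.029. Without WT_CON_7607 the WT value was -0.33. The gene (ENSMUSG00000029445, chromosome 5, bases 123171807 to 123182727, minus strand, 14 exons) lies within the spans of the lincRNA Gm26745 on the same strand and of Psmd9 on the other strand. Whether the counting used strand is not given in the sources used here, so reads of these genes may not be separable.

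Fah, fumarylacetoacetate hydrolase, is the last enzyme of the pathway and the one lost in hereditary tyrosinaemia type 1 (ENSMUSG00000030630, chromosome 7, bases 84585159 to 84606722, minus strand, 14 exons). Its group means were 359 ± 64.8 (SD) in WT Con, 353 ± 17.1 in WT MR, 357 ± 24.6 in NRF2 KO Con and 355 ± 21.5 CPM in NRF2 KO MR. No neighbours in the order of these means differed by as much as the SD. The 95% interval for MR on the log2 scale ran in WT from -0.22 to 0.17 and in NRF2 KO from -0.18 to 0.17, the narrowest of the 9 in each genotype. The WT value was -0.024, and -0.077 without WT_CON_7607. The sign of the Fah value turned in both when counts were scaled by library size alone.

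Sds and Sdsl, serine dehydratase and its paralog, are neighbours on chromosome 5, transcribed away from each other with 3715 bases between them. Sds (ENSMUSG00000029597, bases 120476526 to 120483932, plus strand, 9 exons) makes pyruvate from serine, and its 3′ end overlaps Plbd2 on the other strand. Sds read 13.7, 21.2, 52.6, 109 and 115 CPM in WT Con mice and 62.8, 75.0, 88.1, 108 and 111 CPM in WT MR mice. The WT Con mice were the most scattered group, with the lowest value in WT_CON_7607, and spanned the whole WT MR range. NRF2 KO Con mice read 33.9 to 95.9 with a median of 71.6, and NRF2 KO MR mice 39.1 to 101 with a median of 77.8 CPM. The values for MR were 0.52 with a 95% interval from -0.44 to 1.49 in WT and 0.22 with an interval from -0.66 to 1.09 in NRF2 KO, so that 1 log2 unit lay inside both intervals. The WT value was 0.27 without WT_CON_7607 and 0.87 without WT_CON_7605, 0.16 over all 24 mice, 0.26 with the signed clock gene score and 0.94 with limma on the deposited normalized values. The NRF2 KO value was 0.082 without KO_CON_7621, 0.36 without KO_CON_7617 and 0.37 with library size alone.

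Sdsl (ENSMUSG00000029596, bases 120458186 to 120472810, minus strand, 9 exons) was counted at a low level. Its means were 5.04 ± 1.15 (SD) in WT Con, 6.23 ± 1.20 in WT MR, 6.61 ± 1.09 in NRF2 KO Con and 6.78 ± 1.59 CPM in NRF2 KO MR, and no neighbours in this order differed by as much as the larger SD. MR gave 0.31 ± 0.18 in WT (edgeR adjusted p = 0.29) and, without NRF2, 0.01 ± 0.16 (adjusted p = 0.97). On Con the genotypes differed by 0.39 with an unadjusted p of 0.032 and an adjusted p of 0.29, with all 6 NRF2 KO Con mice above the WT Con median. Without WT_CON_7607 that difference was 0.31 and the WT value for MR 0.23. No enzyme passed on Con with edgeR, this was the 1 with an unadjusted p under 0.05, and DESeq2 called 0. Of all genes 0.802% were higher and 1.27% lower in NRF2 KO on Con.

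The 9 enzymes did not vary together as 1 block from mouse to mouse. On log2 CPM with each group's mean removed, over 22 mice, 25 of the 36 pairs had a positive Pearson r, the median was 0.51 and the range -0.64 to 0.86. These are descriptions, since all pairs share the same libraries. Tdo2, Hpd, Hgd, Fah, Sds, Sdsl and Haao were positively related in every pair, the weakest being Sds and Sdsl (r = 0.29, rho = 0.24, and -0.022 without the 2 mice described next), with the highest values for Sdsl and Haao (r = 0.86, Spearman's rho = 0.81), Tdo2 and Hpd (r = 0.79, rho = 0.79) and Fah and Haao (r = 0.74, rho = 0.86). Tat and Oat stood apart from these 7 and went together (r = 0.61, rho = 0.66). Tat was negatively related to Sdsl (r = -0.64, rho = -0.60) and to Haao (r = -0.46, rho = -0.28). Without the 2 mice farthest from the median of the first gene of the pair, r was 0.83 for Sdsl and Haao, 0.69 for Tdo2 and Hpd, 0.76 for Fah and Haao, 0.52 for Tat and Oat, -0.51 for Tat and Sdsl and -0.33 for Tat and Haao. On the same basis r fell from 0.52 to 0.10 for Hgd and Fah and from 0.41 to 0.024 for Hgd and Sds. It fell from 0.64 to 0.36 for Fah and Sds and rose from 0.50 to 0.59 for Hpd and Hgd. Oat and Haao, which both fell on MR, were weakly and negatively related within groups (r = -0.24, rho = -0.18). Without the 2 mice farthest from the median of Oat their r was -0.11. In all 7 enzymes other than Tat and Oat, WT_CON_7605 was the highest and WT_CON_7607 the lowest WT Con mouse.

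**Figure D3:**
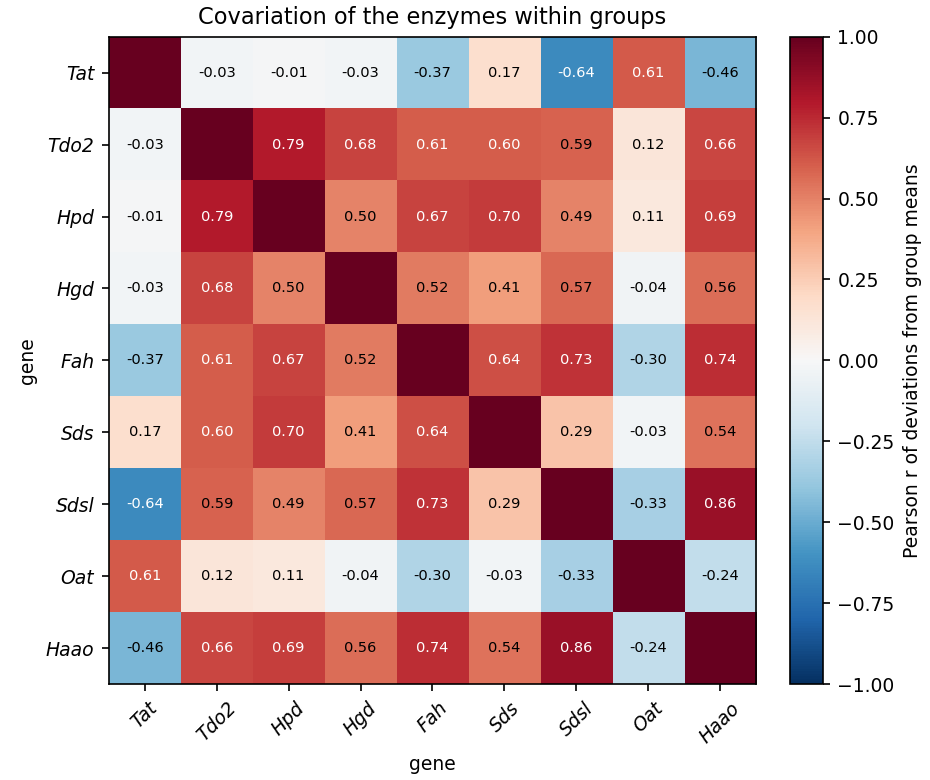
Pearson r (colour scale and printed values) between pairs of the 9 enzymes, on log2 CPM with group means removed, over 22 mice; both axes list the genes. The 7 enzymes other than Tat and Oat are positive with each other, up to 0.86, and Tat and Oat pair with each other at 0.61.

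The enzymes differed in their spread between mice of 1 group. The within-group SD of log2 CPM was 0.78 for Sds, 0.51 for Tat, 0.45 for Oat and 0.42 for Tdo2, and 0.30 for Sdsl, 0.27 for Haao, 0.26 for Hpd, 0.15 for Hgd and 0.14 for Fah. Among genes with a mean of at least 1 CPM, Sds was more variable than 98.4% and Fah than 18.8%.

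The genes whose levels over the 22 mice were most like those of each enzyme were ranked among 11988 others by Pearson r of log2 CPM, group differences included. For Tdo2 they were Cat (catalase, r = 0.94, rho = 0.89) and Aldh1a1 (a retinaldehyde dehydrogenase, r = 0.91, rho = 0.87). For Haao they were the major urinary protein genes Mup12 (r = 0.92, rho = 0.88) and Mup10 (r = 0.92, rho = 0.87), near-identical copies whose reads may be shared. For Hgd they were the cytochrome Cyp4a12a (r = 0.88, rho = 0.83) and Kynu, kynureninase of the tryptophan pathway (r = 0.86, rho = 0.83), and for Hpd the amidase Nit2 (r = 0.89, rho = 0.85) and Slc27a5, a bile acid ligase (r = 0.89, rho = 0.93). For Sds they were Slc37a4, the glucose 6-phosphate transporter (r = 0.82), and Aldh6a1 of valine breakdown (r = 0.82), with rho of 0.65 for each. Oat was most like 1110065P20Rik (r = 0.89, rho = 0.92) and Ctcflos (r = 0.86, rho = 0.89), and Tat most like Mta3 (r = 0.84, rho = 0.84) and Alkbh5 (r = 0.81, rho = 0.86). Fah was most like the gap junction gene Gjb1 (r = 0.82, rho = 0.73) and Scnn1a (r = 0.80, rho = 0.79), and Sdsl most like Ogfod2 (r = 0.78, rho = 0.75) and Txnrd2 (r = 0.77, rho = 0.76).

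The other amino acid breakdown genes, 65 tested of 72 listed, went in both directions on MR. In WT, 3 rose and 5 fell on MR, and in NRF2 KO 2 rose and 12 fell, or 12.3% and 21.5% of the 65. With edgeR 0 of the 65 passed the interaction of genotype and diet, and 2 had an unadjusted p under 0.05. Each diet had 5 mice in WT and 6 in NRF2 KO. Of all genes tested, 6.91% rose and 6.91% fell in WT, so the WT counts were near the share of all genes. In NRF2 KO 6.23% of all genes rose and 6.34% fell. With counts scaled by library size alone 9 of the 65 were higher and 4 lower in WT. In NRF2 KO 12 were higher and 7 lower with that scaling, so the balance of directions depends on the scaling. Their median log2 fold change was -0.0049 in WT and -0.065 in NRF2 KO. Of the tryptophan and kynurenine list, Kmo, which makes 3-hydroxykynurenine between Tdo2 and Haao, fell in both genotypes (-0.57 ± 0.15 and -0.48 ± 0.13, edgeR adjusted p = 0.011 and 0.018), and Kynu fell in NRF2 KO (-0.40 ± 0.13, adjusted p = 0.040). Kyat1, a kynurenine aminotransferase, rose in WT (0.35 ± 0.11), so that 1 of 9 tested rose and 1 fell in WT, and 2 fell in NRF2 KO.

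Of 7 other phenylalanine and tyrosine genes, Il4i1, an aromatic amino acid oxidase of immune cells, fell in WT (-1.43 ± 0.32, edgeR adjusted p = 0.0038), and Fahd1, a mitochondrial oxaloacetate decarboxylase related to Fah, fell in NRF2 KO (-0.66 ± 0.11, adjusted p = 0.00059). Il4i1 was counted at a very low level, with means of 1.10 CPM in WT Con and 0.39 CPM in WT MR. It was -0.70 in NRF2 KO, and Fahd1 was -0.32 in WT (edgeR adjusted p = 0.091 for each). Of 12 serine, glycine and threonine genes 2 fell in each genotype, with Agxt2 at -0.44 ± 0.13 in WT and -0.41 ± 0.12 in NRF2 KO, and Agxt, the peroxisomal alanine-glyoxylate aminotransferase, at -0.44 ± 0.12 in WT. Of 10 ornithine, proline and glutamate genes beside Oat, none passed in WT with edgeR, 1 having an unadjusted p under 0.05, and only Got1, the cytosolic aspartate aminotransferase, fell in NRF2 KO (-0.44 ± 0.14, adjusted p = 0.042). The WT value of Got1 was -0.40 (edgeR adjusted p = 0.081). Of 4 histidine genes, Ftcd (-0.60 ± 0.17) and Uroc1 (-0.51 ± 0.16) fell in NRF2 KO. Their WT values were -0.52 and -0.27 (edgeR adjusted p = 0.061 and 0.34). Of 4 lysine genes, Aldh7a1 fell in both genotypes (-0.48 ± 0.14 and -0.54 ± 0.13). Branched-chain genes went both ways: Bcat2 rose in WT (0.54 ± 0.17, adjusted p = 0.035) and Dbt in NRF2 KO (0.47 ± 0.15, adjusted p = 0.038), 2 of 19 rose and 0 fell in WT, and 2 rose and 3 fell in NRF2 KO. Between genotypes none of the 65 passed with edgeR on either diet, and DESeq2 called 0 on Con and 1 on MR. With edgeR 3 of the 65 on Con and 9 on MR had an unadjusted p under 0.05. Of all 13336 genes tested 1917 on Con and 1851 on MR had one, so neither count was above the share of all genes.

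**Figure D4:**
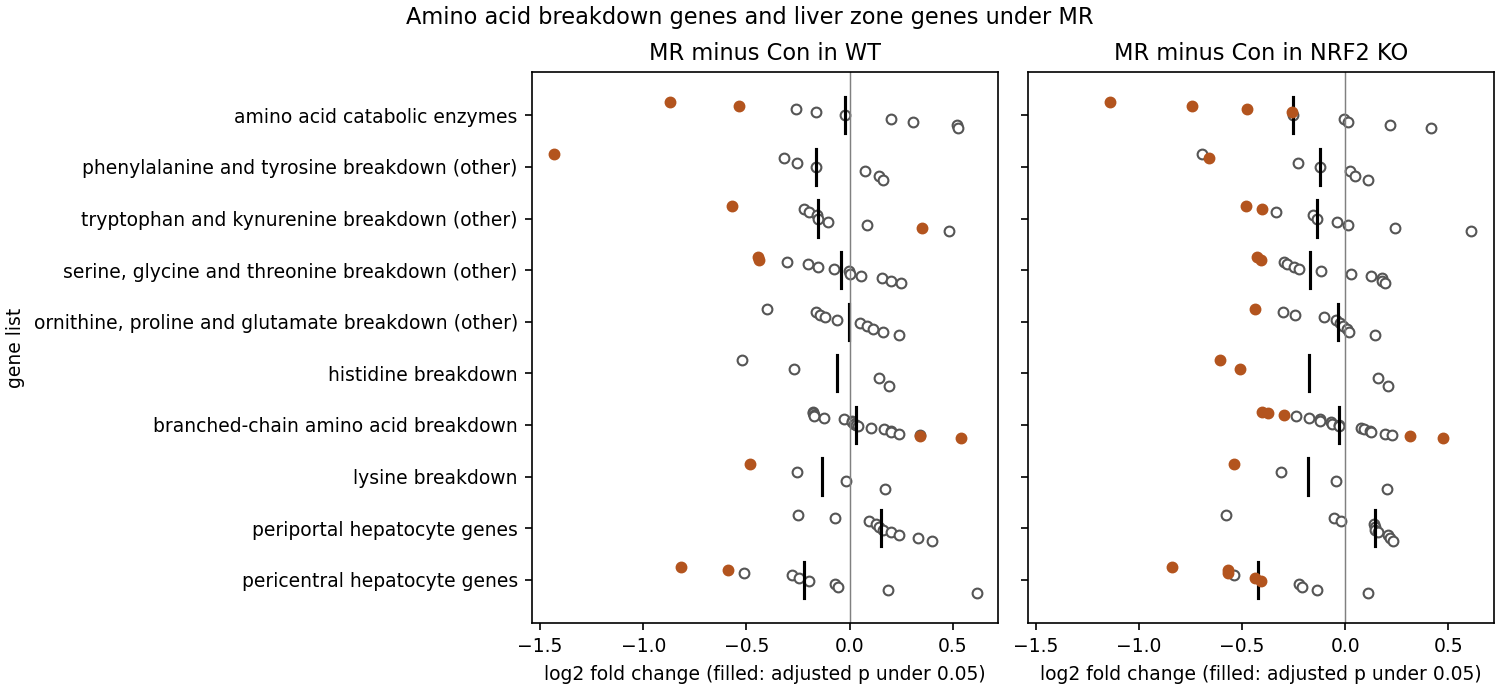
Log2 fold change of MR against Con (horizontal axes) in WT (left) and NRF2 KO (right) for each gene of the lists named on the vertical axis; filled points have an adjusted p under 0.05 and the black bars are list medians. Filled points lie mostly left of 0, more of them in NRF2 KO, and the periportal list has none. No gene of these lists passed the interaction of genotype and diet.

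Among 13 regulators of amino acid catabolism, Klf15 (0.50 ± 0.13, edgeR adjusted p = 0.011) and Foxo1 (0.31 ± 0.10, adjusted p = 0.048) rose on MR in WT, and both were higher in NRF2 KO than in WT on Con (0.51 ± 0.12 and 0.50 ± 0.10, adjusted p = 0.027 and 0.0067). With the signed clock gene score as a covariate 0 of 13336 genes passed between genotypes on Con with edgeR, beside 276 without it, so both of these genotype calls were lost. The score did not overlap between WT Con and NRF2 KO Con mice. Klf15 and Foxo1 are transcription factors of the fasted liver. In NRF2 KO, Atf4, the amino acid response factor, rose (0.34 ± 0.09, adjusted p = 0.013) and Cebpa, a hepatocyte factor, fell (-0.47 ± 0.10, adjusted p = 0.0031). In WT these 2 went the same way without passing (0.27 and -0.28, edgeR adjusted p = 0.064 and 0.083). Klf15 and Foxo1 were 0.17 and 0.11 on MR in NRF2 KO (edgeR adjusted p = 0.37 and 0.51). Of 10 glucocorticoid and fasting response genes 4 rose and 1 fell in WT and 0 rose and 1 fell in NRF2 KO. Of all genes tested, 6.91% rose and 6.91% fell in WT, and 6.23% rose and 6.34% fell in NRF2 KO. The largest changes that passed in the glucocorticoid and fasting list were Cdkn1a in WT (-2.06 ± 0.43, adjusted p = 0.0035) and G6pc, glucose 6-phosphatase, in NRF2 KO (-1.63 ± 0.27, adjusted p = 0.00079). Cdkn1a was -1.17 in NRF2 KO and G6pc -0.86 in WT, which did not pass (edgeR adjusted p = 0.051 and 0.060). No regulator and no gene of that list passed the interaction of genotype and diet.

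Because the pericentral zone is where Oat is known to be made, markers of liver zones were counted too. Of 10 pericentral genes 2 fell in WT and 5 in NRF2 KO, among them the ammonium transporter Rhbg (-0.82 ± 0.25 and -0.84 ± 0.22, edgeR adjusted p = 0.031 and 0.016) and Lect2 (-0.59 ± 0.12 and -0.41 ± 0.11). Their summed level ran from 3952 to 4538 CPM in WT Con, 3279 to 4140 in WT MR, 3669 to 6882 in NRF2 KO Con and 3406 to 4826 in NRF2 KO MR mice. Of 10 periportal genes none passed in either genotype with edgeR, and 1 in WT and 0 in NRF2 KO had an unadjusted p under 0.05. Markers of other cells also moved with the diet: 4 of 8 Kupffer cell, 5 of 8 stellate cell and 4 of 5 bile duct cell markers fell on MR in WT, and 3, 3 and 1 fell in NRF2 KO. Kupffer markers summed to 358 to 483 CPM in WT Con and 289 to 327 in WT MR, and to 306 to 464 in NRF2 KO Con and 269 to 369 in NRF2 KO MR mice. Stellate markers summed to 470 to 741, 401 to 504, 548 to 617 and 456 to 574 CPM and bile duct markers to 49.4 to 73.3, 20.9 to 28.3, 31.8 to 53.6 and 20.7 to 29.0 CPM in the same order. Hepatocyte markers, of which only Apoa1 passed in either genotype (lower on MR in both), summed to 96009 to 126944, 90998 to 107199, 124281 to 143482 and 112946 to 134246 CPM in the same order. Pancreatic acinar markers summed to 21.8 to 64.7, 18.8 to 25.7, 32.6 to 87.6 and 18.1 to 70.2 CPM. In every WT mouse Prss2, Cpa1, Cpb1 and Pnlip were under 0.5 CPM, and in NRF2 KO no acinar marker with counts was under it in every mouse of either diet. Cela1, the 1 acinar marker tested, fell on MR in NRF2 KO (-1.43 ± 0.26, edgeR adjusted p = 0.0014). Of 5 red blood cell markers Alas2 fell in both genotypes (-0.91 ± 0.27 and -1.16 ± 0.24). The part of these markers in the falls of Oat, Haao, Tdo2 and Hgd was not tested.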

How the data were processed

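The authors made 1 QuantSeq 3′ library from the liver of each of 24 mice. The deposited counts are raw read counts per gene made with the kit maker's pipeline, and the deposited normalized signal is the same counts over 1 size factor per mouse (largest relative deviation 5.1e-15). The submitters' processing notes name R 3.4.3, DESeq2 1.18.1 and GRCm38. The aligner is not given in the sources used here. Raw counts were fitted in R 4.3.3 with edgeR 4.0.16 (TMM, filter by expression, robust quasi-likelihood F-tests, 1 mean per group), adjusted over 13336 genes, and SE is the absolute log2 fold change over the root of F. Log2 CPM used a prior count of 2. Scripts were tested on simulated data.

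The 9 enzymes and all lists were chosen with earlier results of these data known. All enzymes are named. Of the other lists the 2 genes with the largest log2 fold change among those called for MR are named, with regulators called in any comparison. Those of the clock, Kupffer, stellate, endothelial and bile duct lists are not named. Single genes beyond these (Kyat1) were named after their values were seen. The paper states that mice were housed singly before the diets began and that WT mice were littermates of NRF2 KO mice. Which mice of a group shared a litter is not stated. The p-values weigh group differences against the spread between these mice. Alternatives were other scalings, filters, DESeq2 1.42.0, limma 3.58.1 on log2(normalized signal + 1), fits of the compared groups alone, all 24 mice, clock scores as covariates and each mouse left out. Figures used matplotlib 3.10.9.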

Additional observations from a re-analysis of the deposited data

Results flagged for a closer look

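Dixon's test for a single stray mouse was run on log2 CPM in each of the 36 combinations of enzyme and group, where chance gives about 1 in 20. It marked 0 of them. The highest Tdo2 mouse on MR without NRF2, KO_MR_7632 at 937 CPM, did not meet it.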

How the results depend on the processing

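No paired analysis was possible because the replicate numbers are mouse identifiers that no 2 groups share. The number of the 9 enzymes passing for MR in WT, 2 as reported, was 1 with library size alone, with only the groups compared and with all 24 mice, 0 with the signed clock score (an alternative chosen after seeing the data), and from 0 to 2 with each mouse left out. For MR in NRF2 KO, 4 as reported, it was 2 with every gene with a count, 1 with all 24 mice, 2 with the signed clock score, and from 1 to 4 with each mouse left out. In NRF2 KO it was 3 with DESeq2 size factors, with library size alone and with limma on the deposited normalized values. For genotype on MR, 1 as reported, it was 0 with either clock score, neither of which overlapped between the genotypes on MR. For the other breakdown genes, MR in WT gave 13 with library size alone, 5 with only the groups compared and from 4 to 10 with each mouse left out, beside 8 as reported. With each mouse left out MR in NRF2 KO gave from 4 (without KO_CON_7617) to 18, beside 14. Under the other alternatives it gave from 11 to 19, the highest with library size alone. Genotype on Con gave 1 with the plain clock score, and genotype on MR gave 1 with DESeq2, 4 with only the groups compared and from 0 to 1 with each mouse left out, beside 0. Signs turned for Fah in WT (0.083 with library size alone, 0.020 with all 24 mice, and from -0.077 to 0.090 with each mouse left out), for Fah in NRF2 KO (0.15 with library size alone, and from -0.035 to 0.022) and for Sdsl in NRF2 KO (-0.020 with the plain and -0.0064 with the signed clock score, and from -0.060 to 0.099). Library size alone moved the median of all genes to 0.087 in WT and 0.15 in NRF2 KO, beside -0.0062 and -0.0042, the split of all genes passing in WT from 922 higher and 921 lower to 1434 and 526, and in NRF2 KO from 831 higher and 846 lower to 2397 and 388. Of 24 other enzyme values between genotypes or for the interaction, 18 changed sign under at least 1 alternative and 0 passed under any. The cause was not tested. Depth limits Sdsl most, at about 5 to 7 CPM.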

Other observations

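The mice left out differed from their groups in several enzymes at once, given here as values scaled with all 24 mice. WT_CON_7604 read 232 CPM of Tat, 152 of Sds, 251 of Haao, 414 of Hpd and 268 of Fah, and WT_MR_7612 read 171 CPM of Haao, 376 of Hpd and 189 of Hgd. Tat in WT_MR_7612, at 192 CPM, lay within the range of the WT MR mice kept. Hpd in both was below every mouse kept. The library labelled WT_CON_7607 was the lowest of the WT Con mice in Tdo2, Hpd, Hgd, Fah, Sds, Sdsl and Haao, and among the highest in Oat (560 CPM).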
